A study of Saccharomyces cerevisiae with 14 samples.

Results

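The control strains are the reference of a budding yeast study of ARV1 mutants, and their 2 RNA samples give a profile of which transcripts are abundant and which are scarce during rapid growth on glucose. Both were chosen by their labels alone, as the control samples, which make up 2 of the 5 RNA samples and 5 of the 14 chips. Control 1/2 is strain SCY328, measured on 4 chips of the Affymetrix Ye6100 set, and control 3 is strain SCY2004, measured on 1 chip of the Affymetrix S98 array. Both are Saccharomyces cerevisiae of the W303 background and mating type a, described by the submitters as isolates that share their genotype, and were taken in the middle of logarithmic growth in YEPD, a rich medium of yeast extract, peptone and dextrose. Beyond the word control, the sources used here do not give their genotype. The other 3 samples are ARV1 mutants, SCY820 and SCY840 on Ye6100 (mutants 1 and 2) and SCY840 on S98 (mutant 3), grown in the same way, and they enter only as a second pair of arrays on which 1 strain can be followed from format to format.

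Yeast cells given abundant glucose ferment it to ethanol even in air. They spend much of their transcription on ribosomes and on the enzymes of glycolysis, while glucose repression keeps down the genes for other sugars, for ethanol and acetate, and for fatty acid breakdown. A haploid cell of mating type a expresses its own pheromone and receptor genes, keeps the alpha-specific genes silent, and does not enter meiosis. Microarray signals rank these programmes within a sample, although probe sets of different genes respond differently to the same amount of RNA, so a rank of signal is only an approximate rank of transcript number.

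Each gene was given a percentile of signal within its own array, from 0 for the lowest to 100 for the highest of the 5316 genes named on both formats. In each pair of values below, the first belongs to control 1/2 on Ye6100 and the second to control 3 on S98. Signals are in the linear units of each array and were not set against each other between formats. Each format held 1 control sample, so no difference between the arrays has a replicate check, and strain, array format and sample cannot be told apart. The labels do not say whether the samples came from separate cultures. On Ye6100, 91 of 5663 genes had several probe sets, so the 4 chips did not give 4 measurements of each gene. The precision within control 1/2 could be read only from 9 control probe sets for messenger RNAs, repeated on all 4 chips. They cover ACT1, YER148W and YER022W. Their coefficient of variation was 5.28% to 21.6% (median 15.1%), and the percentile of 1 probe set spanned 0.2 to 11.9 points over the 4 chips (median 3.5). These spans were 0.2 to 0.7 points for ACT1, near the top, and 4.6 to 11.9 for YER022W, the lowest of these genes. The actin gene ACT1, measured at its 3' end, ran from 3521 to 3993.

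The arrays differed in how signal was spread. On Ye6100 the gene signals had a median of 70.7, a 99th percentile of 5815 and a highest value of 24612. On S98 the median was 253.3, the 99th percentile 5351 and the highest value 6908. The 53 genes at the top of each array held 29.3% of the summed gene signal on Ye6100 and 8.36% on S98. The highest signal thus stood 4.23 times above the 99th percentile on Ye6100 and 1.29 times above it on S98, and the order of the brightest genes on S98 rests on small differences. At the other end stood probe sets for 5 bacterial genes, for which no matching RNA is expected from yeast. They read 0.1 to 24.2 on Ye6100 (median 1.9) and 1.4 to 53.1 on S98 (median 4.7). Of the 5316 genes, 1032 (19.4%) on Ye6100 and 663 (12.5%) on S98 were at or below the highest of these, 487 (9.16%) on both. That highest value was taken over 60 values on Ye6100 and 15 on S98, so the shares of the 2 arrays are not strictly comparable. The bottom 10% of genes, with upper limits near 14.1 and 45.0, lies within the range of these probe sets, although those limits are above their medians. The order of genes there may therefore be an order within background signal.

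The arrays shared most of their brightest genes. The top 10% held 532 genes on each array (10%), and 368 genes, 6.92% of all and 69.2% of each set, were in it on both. The bottom 10%, 531 genes on Ye6100 (9.99%) and 532 on S98 (10%), shared 290 genes, which is 5.46% of all genes and 54.6% and 54.5% of the respective sets. Over all genes the rank correlation between the controls (Spearman, across 5316 genes, which are not independent of each other) was 0.829, and 2895 genes (54.5%) lay within 10 percentile points on both arrays. The SCY840 mutant, hybridised to both formats, gave 0.831 and 54.7%. Within a format the values were higher, at 0.920 for control 1/2 with mutant 1, 0.888 with mutant 2 and 0.947 for control 3 with mutant 3. The plot of all genes on both arrays shows a wider scatter in the middle of the range than at its upper end.

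**Figure D1:**
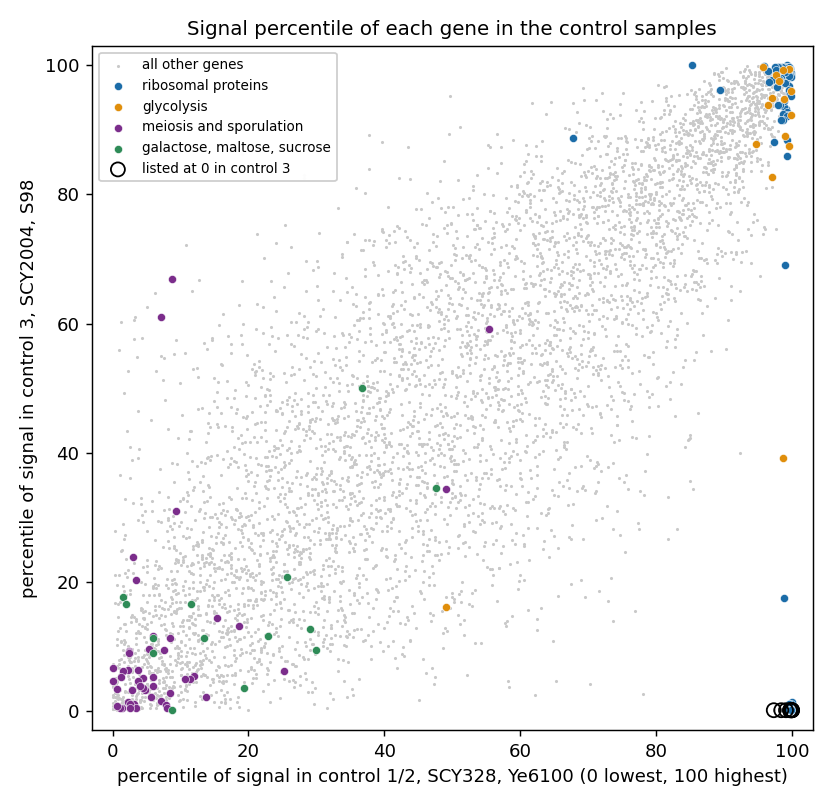
Percentile of signal of each of the 5316 genes in control 1/2 (SCY328, Ye6100, horizontal axis) and control 3 (SCY2004, S98, vertical axis), with 0 the lowest and 100 the highest signal of an array. Ribosomal protein and glycolysis genes crowd the upper right corner, meiosis genes the lower left, and the 10 ringed genes at the lower right are listed at 0 in control 3 while they stand in the top 10% on Ye6100.

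Ribosomal protein genes held the highest ranks. Of 138 genes for cytosolic ribosomal proteins, 78 are named on both arrays, and 61 of these were in the top 10% on both, against 6.92% of all genes. Singly, the top 10% took 75 of them on Ye6100 and 63 on S98. Their median percentiles were 99.1 and 97.7. For the large subunit 33 of 44 genes, and for the small subunit 28 of 34, were in the top 10% on both arrays, with medians of 99.2 and 97.8 for the large and 98.7 and 97.6 for the small subunit.

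Ranked by the lower of the 2 percentiles, 16 of the leading 20 genes encode ribosomal proteins: RPL17A, RPS29B, RPL31B, RPL31A, RPS0A, RPL28, RPL5, RPL33A, RPS25B, RPS10A, RPL13A, RPL3, RPP1B, RPL16B, RPL17B and RPS7A. RPS31, which encodes a ribosomal protein fused to ubiquitin, makes 17. The remaining 3 were CDC19 for pyruvate kinase, GPM1 for phosphoglycerate mutase, and ZEO1, which encodes a protein of the cell periphery. Some of these ranks rest on the brightest of several probe sets. With the mean of all probe sets, the mean percentile over both arrays went from 99.4 to 96.4 for RPP1B and from 99.6 to 96.7 for RPL17A. Those were the largest falls, and other genes of the 20 moved less, some of them upward. The signals of these 20 genes ran from 4209.8 to 20151 on Ye6100 and from 4990.0 to 6630.5 on S98. No gene of the 20 differed by more than 1.4 percentile points between arrays, but choosing genes by the lower percentile leaves little room for a wider gap.

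RPL5, whose protein binds the 5S ribosomal RNA, had signals of 6221 and 6630.5 and stood at 99.2 and 100. RPL3, a protein of the peptidyl transferase centre, read 6848 and 5254, at 99.3 and 98.9. RPL28 read 6349 and 5992, at 99.2 and 99.7. These 3 are single-copy genes, and they stood as high as the duplicated genes. Among duplicated genes, RPL17A read 9145 and 5856 and RPL17B 8714 and 4990.0, and the pair lay at 99.7 and 99.6 and at 99.6 and 98.6. RPL31A and RPL31B lay at 99.4 and 99.9 and at 99.7 and 99.5. The S98 probe sets of RPL17A and RPL17B, and those of RPL31A and RPL31B on both formats, carry a name suffix for probes shared with related transcripts. There the 2 copies of a pair are not separated. With marked probe sets left out, the mean percentile of RPL31A over both arrays went from 99.7 to 84.4, below the top 10%. Other suffixes mark dropped probes, and all kinds were counted together. Some suffix applies to RPS29B, RPS0A, RPL33A, RPS25B and RPS10A on at least 1 format. The same holds for 41 of the 368 genes in the top 10% on both arrays.

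A minority of ribosomal protein genes did not follow. RPL15B, the second copy of RPL15A, stood at 67.7 and 88.8, the lowest of the large subunit genes on Ye6100, while RPL15A stood at 97.9 and 99.8. RPS27B stood at 99 and 69 and its partner RPS27A at 98.2 and 97.8. RPP0, for the base of the ribosomal stalk, stood at 98.8 and 17.5. A further 9 ribosomal protein genes, all in the top 10% on Ye6100, were in the bottom 10% on S98, and they are taken up with the differences between the arrays. The medians of both subunits changed by at most 1.1 points under every choice of probe sets and genes to rank that was tried.

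Translation factors and the charging of transfer RNAs followed. Of 27 translation factor genes 10 were in the top 10% on both arrays, and the medians were 90.6 and 88.7. YEF3, the fungal elongation factor 3, read 2404 and 5916 and stood at 97.6 and 99.6. EFB1, the exchange factor of elongation factor 1, stood at 99.4 and 97.1, CDC33, the cap-binding protein, at 98.7 and 95.7, and SUI1, which takes part in start codon choice, at 96.3 and 97.3. The scaffold subunits of the cap-binding complex were far lower, with TIF4631 at 74.5 and 42 and TIF4632 at 31 and 10.1. All 18 genes for cytosolic aminoacyl-tRNA synthetases were above the middle of both arrays, 7 of them in the top 10% on both, with medians of 91.1 and 92.4. THS1, DPS1 and WRS1, for the threonine, aspartate and tryptophan enzymes, stood at 97.3 and 96.9, at 94.7 and 95.2 and at 96 and 92.8.

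Genes that build ribosomes ranked lower than genes for their parts. The 47 ribosome biogenesis genes had medians of 72.2 and 74.8, and 6 were in the top 10% on both arrays. NHP2, GAR1 and NOP1, core proteins of the small nucleolar ribonucleoproteins, stood at 97.6 and 96.1, at 94.3 and 96.6 and at 93.8 and 93.9. NOP58, another core protein, stood at 93 and 99.5, with the S98 probe set marked for related transcripts. NOP14 and NOP12, which act in subunit assembly, stood at 35.5 and 24.8 and at 34.9 and 32.1. Subunits of RNA polymerases I, II and III had medians of 80.8 and 79.5 over 31 genes. The small shared subunit genes RPB8, RPB10 and RPO26 stood at 97.5 and 98.6, at 90.4 and 96.1 and at 87.9 and 96, and RPC53, of polymerase III, at 32.7 and 61, the lowest of the list on Ye6100.

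**Figure D2:**
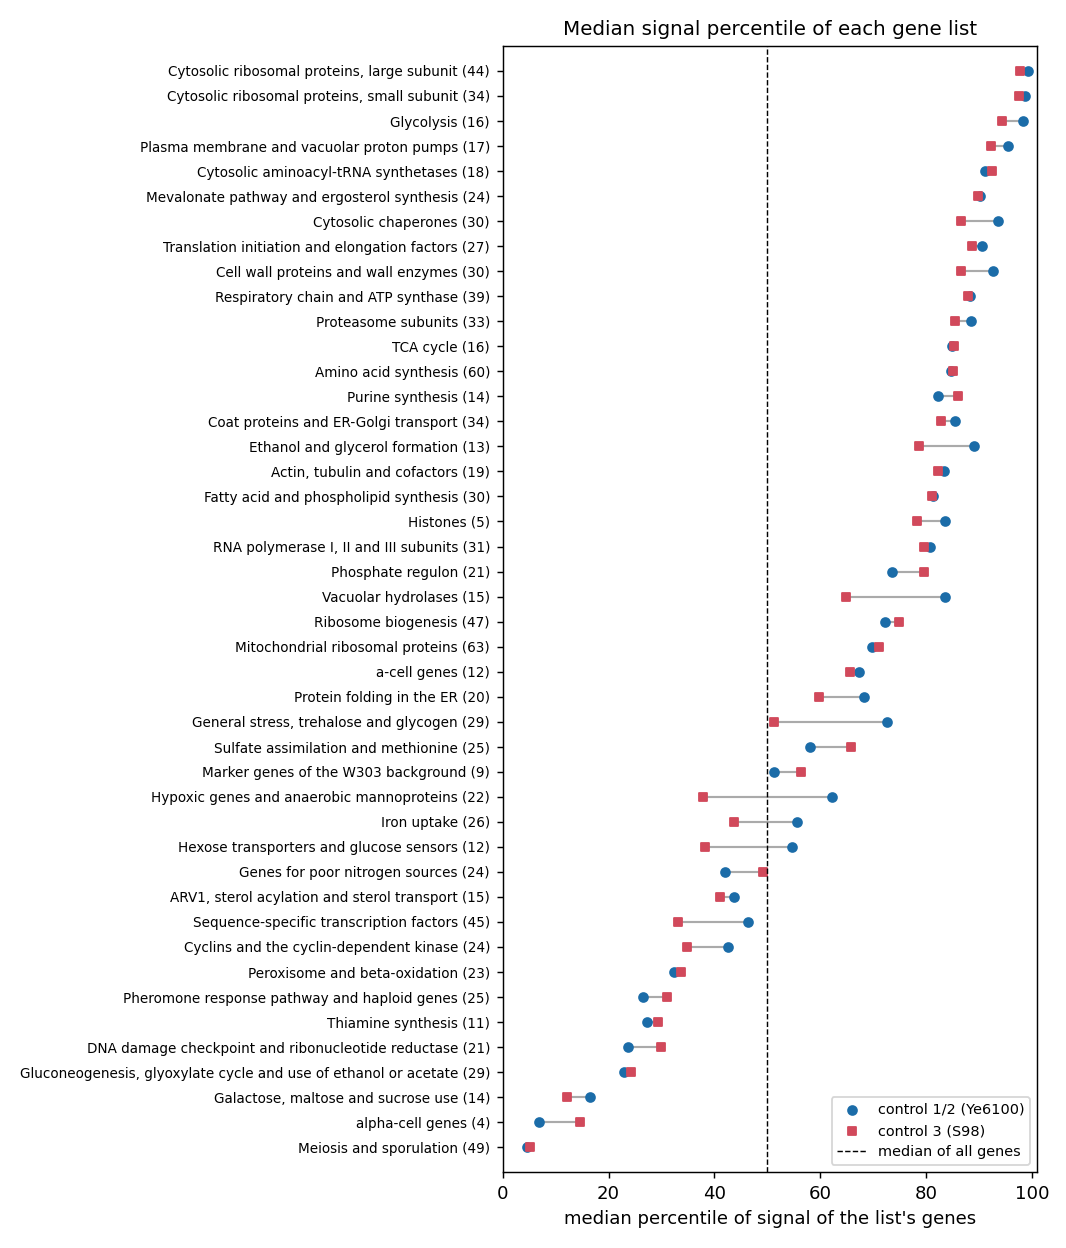
Median percentile of signal of 44 gene lists, with the number of genes named on both arrays in brackets; circles are control 1/2 on Ye6100, squares control 3 on S98, and the dashed line is the median of all genes at 50. Both ribosomal protein lists lie above 97 on both arrays and the meiosis list near 5, and the lists with the longest lines, among them general stress, hypoxic and vacuolar genes, lie lower on S98.

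Glycolysis was the second programme at the top. Of 16 glycolytic genes 15 were in the top 10% on Ye6100, and 10 on S98, all of which were in both, and the medians were 98.3 and 94.3. CDC19, for the main pyruvate kinase, read 8133 and 5639 and stood at 99.5 and 99.4. GPM1 read 4571 and 5530.2, at 98.7 and 99.2. FBA1, for aldolase, read 14252 and 3599, at 99.9 and 96. TDH1, 1 of the genes for glyceraldehyde-3-phosphate dehydrogenase, stood at 97.7 and 98.5. The enolase genes ENO1 and ENO2, with a suffix on S98, stood at 98.8 and 94.8 and at 98.9 and 89. The phosphofructokinase subunits PFK1 and PFK2 stood at 96.4 and 93.8 and at 97 and 94.9.

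For pyruvate kinase and hexokinase the form that predominates on glucose was the higher on both arrays. CDC19 was followed at a distance by PYK2, the pyruvate kinase that is repressed by glucose, at 49 and 16.1. The hexokinase gene HXK2, the predominant form on glucose, stood at 98 and 97.5, and HXK1 and the glucokinase gene GLK1 at 97.1 and 82.7 and at 94.7 and 87.8. On Ye6100 HXK1 thus stood close below HXK2. The enolase pair kept no common order, with ENO1 and ENO2 level on Ye6100, at 98.8 and 98.9. On S98 ENO1 was the higher, at 94.8 against 89. TDH3, for the major form of glyceraldehyde-3-phosphate dehydrogenase, was placed differently by the arrays. It read 4622 on Ye6100, at percentile 98.7, and 173 on S98, at percentile 39.2, where its probe set carries a suffix.

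Ethanol and glycerol formation showed the same division. Of 13 genes 4 were in the top 10% on both arrays, and the medians were 89 and 78.6. PDC1, the main pyruvate decarboxylase, read 7589 and 3823 and stood at 99.4 and 96.6. Its relatives PDC5 and PDC6 stood at 56.1 and 50.1 and at 8.8 and 3.6, so the 3 genes kept 1 order on both arrays, and PDC6 read 12.3 and 19.5, within the range of the bacterial probe sets. ADH1, the alcohol dehydrogenase that makes ethanol, read 5068 and 2743, at 98.8 and 93.2, and the mitochondrial ADH3 stood at 92.3 and 98.9. ADH2, which oxidises ethanol and is repressed by glucose, stood at 68.9 and 43. For glycerol, GPP1 stood at 97.5 and 94.6, its copy GPP2 at 82 and 48.3, GPD1 at 96.2 and 81 and GPD2 at 63.8 and 75.8.

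The hexose transporters split into a high and a low group. HXT6 and HXT7, for high-affinity carriers, stood at 96.4 and 97.9 and at 96.3 and 94.1, but their sequences are nearly identical and both carry the suffix for related transcripts. HXT3 and HXT1 encode low-affinity carriers of cells in high glucose. HXT3 read 488 and 5130.1 and stood at 88.5 and 98.7, and HXT1 read 644 and 2308 and stood at 91.3 and 91.4. HXT2 and HXT4 stood at 82.1 and 93 and at 79.9 and 61.6. At the low end, HXT10 read 0.3 and 20, HXT14 6.6 and 1.3, HXT5 11.1 and 61 and HXT8 14.5 and 58.4, and none of these stood above percentile 15 on either array. The glucose sensor genes SNF3 and RGT2 stood at 29.3 and 3 and at 18 and 7.7, below each of the 6 higher carriers. The medians of the 12 genes, 54.6 and 38.2, fall in the empty space between the groups. The mean of the medians over both arrays was 46.4, and 19.0 when probe sets with the suffix were left out.

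**Figure D3:**
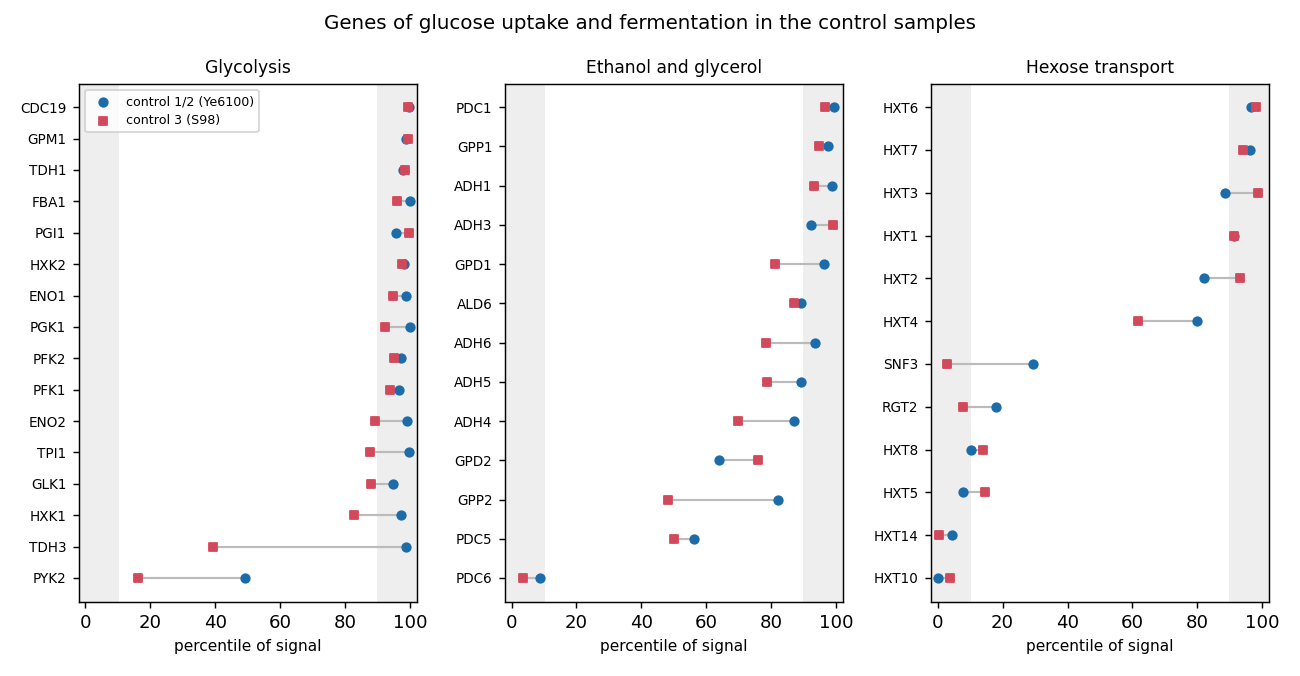
Percentile of signal of each gene for glycolysis, for ethanol and glycerol formation and for hexose transport, in control 1/2 (circles, Ye6100) and control 3 (squares, S98), with the top and bottom 10% shaded. Most glycolytic genes lie in or near the top 10% on both arrays, TDH3 is the widest apart of the glycolytic genes, and the hexose carriers fall into a high group down to HXT4 and a low group from SNF3 to HXT10.

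Other biosynthetic and maintenance functions ranked well above the middle. In 20 of the 44 lists both medians were at least 75. Proton pumps of the plasma membrane and the vacuole had medians of 95.4 and 92.3, with 10 of 17 genes in the top 10% on both arrays. PMP2, for a small protein that associates with the plasma membrane proton pump, stood at 98.1 and 100, and the vacuolar subunits VMA16, VMA11 and VPH1 at 98.7 and 97, at 96.1 and 99.3 and at 96.6 and 98.7. PMA2, the second gene for the plasma membrane pump, was the low member at 14.9 and 22.8, with signals of 19.3 and 89.3.

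Sterol synthesis was among the abundant anabolic pathways. Of 24 genes of the mevalonate pathway and ergosterol synthesis 9 were in the top 10% on both arrays, with medians of 90.2 and 89.8. ERG2, ERG25, ERG11 and ERG3, which act after the first sterol has formed, stood at 98.2 and 99.1, at 96 and 99.3, at 96.3 and 98.9 and at 96.9 and 97.6. ERG5 and HMG2, the second gene for HMG-CoA reductase, stood lower at 53.4 and 69.8 and at 55.6 and 61.5. Genes for sterol esters and sterol movement ranked lower, with medians of 43.6 and 41.1 over 15 genes and none in the top 10% on either array. ARV1 itself, the gene altered in the mutants, which encodes an endoplasmic reticulum protein linked to lipid transport, read 33.4 and 73.3 and stood at 27.5 and 18.3. ARE2 and ARE1, for the acyl-CoA sterol acyltransferases, stood at 31.6 and 30.8 and at 68.2 and 72.7, and NPC2, the highest, at 87.6 and 84.8.

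Lipid, amino acid and nucleotide synthesis were also high. Fatty acid and phospholipid genes had medians of 81.3 and 81 over 30 genes, with OPI3, a phospholipid methyltransferase, at 96 and 99.2, ACB1, the acyl-CoA binding protein, at 96.2 and 97, and OLE1, the desaturase, at 95.2 and 96.2. INO1, the inositol-3-phosphate synthase that is repressed when inositol is present, was lowest at 8 and 11.4, with signals of 11.5 and 49.3. Amino acid synthesis had medians of 84.7 and 85, with 17 of 60 genes in the top 10% on both arrays. HIS1, GDH1 and GLN1 stood at 97.3 and 98.5, at 96.8 and 98.6 and at 96.3 and 98.2, and ARG3, of arginine synthesis, at 10.4 and 18.8. Purine synthesis had medians of 82.3 and 86 over 14 genes, with GUA1, the GMP synthase, at 92.9 and 96.4 and ADE4, which catalyses the first committed step, at 37.3 and 20.5. Sulfate assimilation and methionine genes included MET17, at 95.1 and 98.7, and the sulfate permease gene SUL1, at 2.7 and 14.5, and their medians were 58.1 and 65.7.

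Respiratory genes were high in these glucose-grown cells. The respiratory chain and ATP synthase had medians of 88.2 and 87.8, with 14 of 39 genes in the top 10% on both arrays and 33 within 10 points. CYC1, for the main cytochrome c, read 1414 and 5449.5 and stood at 95.8 and 99.1. COX7, COX4 and COX12, for subunits of cytochrome c oxidase, stood at 94.5 and 98.5, at 95 and 97.2 and at 92.9 and 99.1. NDE2, 1 of 2 external NADH dehydrogenase genes, was the low member at 13 and 6.6, while NDE1 stood at 88.9 and 87.8. The TCA cycle had medians of 84.9 and 85.2 over 16 genes, with MDH1 at 93.9 and 94, IDH2 at 92.5 and 92.9 and CIT1 at 94.1 and 90.6. Mitochondrial ribosomal proteins had medians of 69.7 and 71.1 over 63 genes, below those of the cytosolic ribosome, with 3 genes in the top 10% on both arrays.

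Protein folding, turnover and traffic followed the same pattern. Cytosolic chaperones had medians of 93.5 and 86.5 over 30 genes, with SSA2 at 99 and 98.4 and EGD2, of the nascent chain complex, at 98.2 and 99.2, while the heat-inducible SSA3 was low at 7.3 and 7.8. Proteasome genes had medians of 88.5 and 85.5 over 33 genes, and RPN4, the transcription factor of those genes, stood lowest in the list at 28.8 and 60.3. In the endoplasmic reticulum, folding genes had medians of 68.2 and 59.7 over 20 genes. The Hsp70 gene KAR2 stood at 97.2 and 97.7 and the disulfide isomerase gene PDI1 at 91.2 and 94.9, while IRE1, the sensor of unfolded proteins, was lowest at 4.9 and 8. Coat and transport genes had medians of 85.4 and 82.7 over 34 genes, with ERV25 at 97.1 and 97.8 and YPT1 at 96.6 and 98.1. Cell wall genes had medians of 92.7 and 86.6 over 30 genes, with ECM33, CIS3 and HSP150 at 96.7 and 98.1, at 98.3 and 96.1 and at 96.8 and 97, and the chitin synthase gene CHS2, whose transcript is confined to a short part of the cell cycle, at 40.3 and 48.7. The cytoskeleton had medians of 83.4 and 82.2 over 19 genes, with profilin (PFY1), cofilin (COF1) and actin (ACT1) at 97.1 and 99.4, at 97.8 and 98 and at 98.3 and 96.7 and the myosin gene MYO1 at 9.4 and 15.4.

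Regulatory genes ranked lower than most enzymes and structural proteins. The 45 sequence-specific transcription factors had medians of 46.4 and 33.1, and a single member, GCN4, which controls amino acid synthesis and is regulated mainly at translation, was in the top 10% on both arrays, at 97.7 and 94.6. ZAP1 and FHL1, for the zinc regulator and a ribosomal protein gene regulator, stood at 5.8 and 10.3 and at 12.8 and 11.1. Cyclins and their partners had medians of 42.6 and 34.9 over 24 genes, with the kinase gene CDC28 at 77.4 and 74.3, its partner CKS1 at 70.2 and 67.5 and the S-phase cyclin gene CLB6 at 7.2 and 2.4. The checkpoint list, with medians of 23.6 and 29.9 over 21 genes, contained both ends. SML1, an inhibitor of ribonucleotide reductase, and RNR4, a subunit of that enzyme, stood at 95.5 and 97 and at 95.7 and 95.4, and the checkpoint genes RAD9, RAD53 and MEC1 at 10.9 and 7.5, at 12.2 and 13.3 and at 18.1 and 8.2. Histone genes, of which 5 of 11 are named on both arrays, had medians of 83.5 and 78.3, with HTB1 at 97.5 and 94.7 and the centromeric histone gene CSE4 at 36.8 and 48.9.

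Lists for nutrient uptake were spread over most of the range. In the phosphate regulon, with medians of 73.5 and 79.5 over 21 genes, the polyphosphate synthesis gene VTC1 stood at 97.5 and 99.9 and the high-affinity transporter gene PHO84 at 93.7 and 99.2, while the regulator gene PHO2 stood at 16.5 and 1.4. Among genes for poor nitrogen sources, with medians of 41.9 and 49.2 over 24 genes, the general amino acid permease gene GAP1 stood at 95.1 and 94.1 and the urea permease gene DUR3 at 5.4 and 6.1. Iron uptake genes had medians of 55.6 and 43.6, with the copper chaperone gene ATX1 at 93.7 and 86.5, the oxidase gene FET3 at 79.5 and 88.9 and the reductase gene FRE5 at 3.7 and 0.7. Thiamine genes were low, with medians of 27.2 and 29.4 over 11 genes, apart from the acid phosphatase gene PHO3 at 86 and 85.9.

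Genes for other carbon sources held low ranks. Of 66 genes for other sugars, for gluconeogenesis and the use of ethanol or acetate, and for peroxisomal fatty acid breakdown, 0 were in the top 10% on either array, against 10% of all genes, and 5 were in the bottom 10% on both, against 5.46%. Their medians were 24.5 and 21.6. Singly, 13 were in the bottom 10% on Ye6100 and 14 on S98, so most of these genes lay low without reaching the floor.

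The galactose, maltose and sucrose genes were the lowest of these, with medians of 16.4 and 12.2 over 14 genes, and 5 of the 14 were at or below the highest bacterial probe set on both arrays, a share of 35.7% against 9.16% of all genes. Of the galactose enzymes, GAL1 read 24 and 19.5 and stood at 19.3 and 3.6, GAL10 read 1.6 and 71.8 and stood at 1.5 and 17.7, and GAL7 read 2.3 and 67.2 and stood at 2 and 16.5. GAL4, the activator, stood at 5.9 and 11.3, whereas GAL80, its repressor, stood at 36.7 and 50, the highest of the list on S98. SUC2, for invertase, stood at 47.6 and 34.5, the highest on Ye6100.

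Gluconeogenesis and the glyoxylate cycle had medians of 22.9 and 24.3 over 29 genes. FBP1, for fructose-1,6-bisphosphatase, read 3.5 and 57.3 and stood at 2.7 and 13.7. PCK1, for phosphoenolpyruvate carboxykinase, stood at 18.3 and 46.8, and ICL1, for isocitrate lyase, at 16.2 and 25.9. The activator genes ADR1 and CAT8 stood at 11.3 and 4.2 and at 12.8 and 2.3. CIT2, the peroxisomal citrate synthase, was the high member at 87.3 and 84.1, ALD4 stood at 78 and 78.4, and the pyruvate carboxylase genes PYC1 and PYC2 at 66.8 and 62 and at 59.2 and 76.2. In the peroxisome list, with medians of 32.3 and 33.6 over 23 genes, the enzyme genes POX1 and CTA1 stood at 0.3 and 5.1 and at 1.3 and 10.6, whereas PEX2 and PEX11, for organelle formation, stood at 78.9 and 87.3 and at 72 and 78.2.

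**Figure D4:**
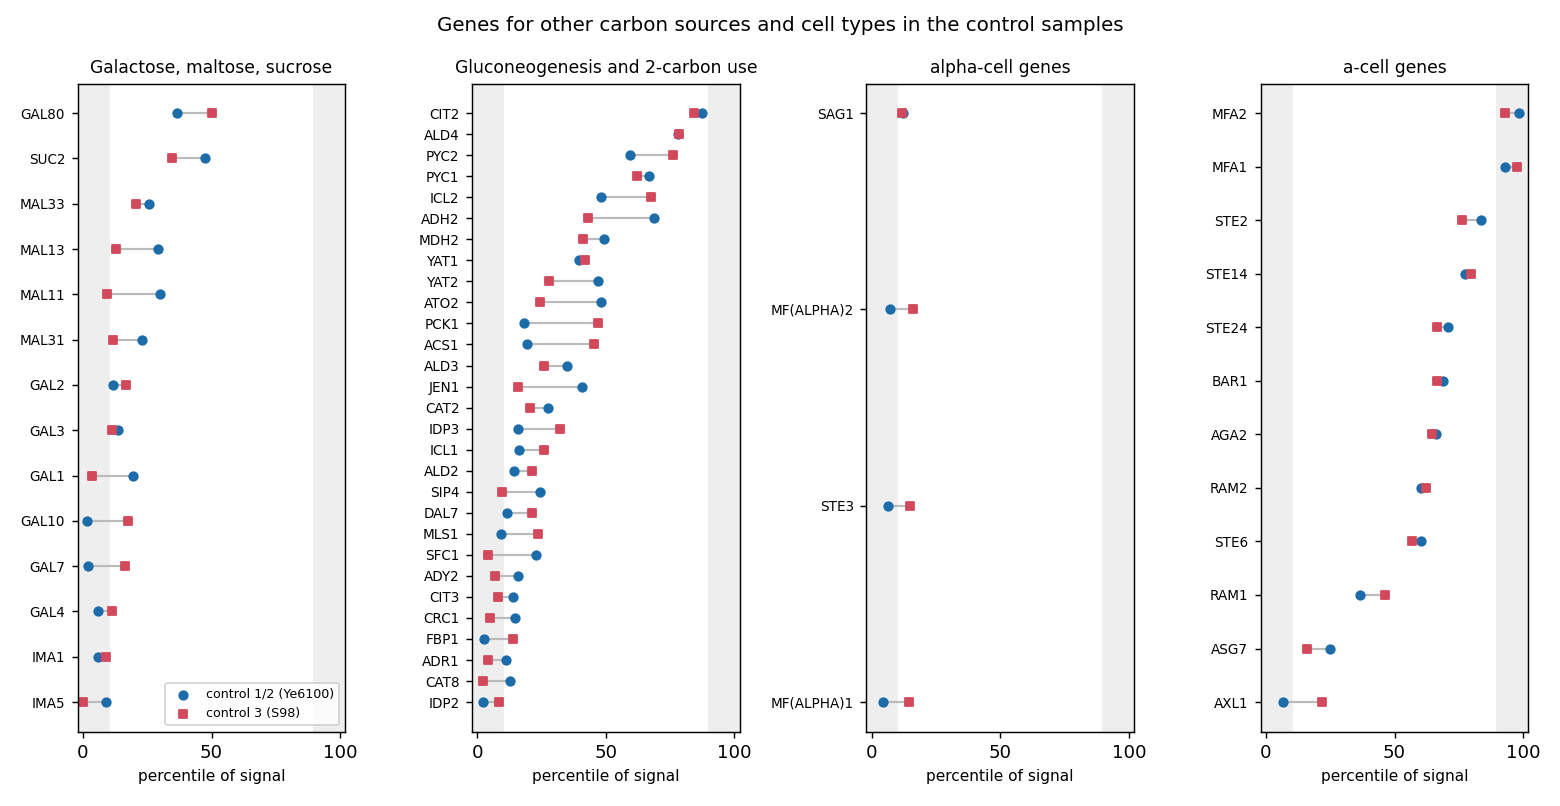
Percentile of signal of each gene for galactose, maltose and sucrose use, for gluconeogenesis and 2-carbon use, and for the alpha and a cell types, in control 1/2 (circles, Ye6100) and control 3 (squares, S98), with the top and bottom 10% shaded. All 4 alpha-cell genes lie below percentile 17 on both arrays, MFA1 and MFA2 of the a-cell list lie in the top 10% on both, and the galactose genes other than GAL80 lie below 20.

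Meiosis and sporulation genes were the lowest of all lists. Of 49 genes 33 were in the bottom 10% on both arrays, against 5.46% of all genes, 40 on Ye6100 and 38 on S98, and 0 were in the top 10% on either. The medians were 4.5 and 5.1, and 39 of the 49 genes (79.6%) were at or below the highest bacterial probe set on both arrays. The order among those 39 may be an order within background signal. The kinase gene SMK1, which acts in spore wall formation, read 0.9 and 2. Of the meiotic recombination genes, MEI5 read 1.2 and 1.2 and MND1 read 1.5 and 1.5. Of the regulators that start the programme, IME1 read 19.8 and 59.9 and IME2 read 9 and 27.3.

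Some members of that list stood higher. SPO73 stood at 55.4 and 59.1 and REC107 at 49.1 and 34.3. SGA1, the glucoamylase of sporulating cells, stood at 8.8 and 66.9, and NDT80, the activator of the middle sporulation genes, at 7.2 and 61, so both were in the bottom 10% on Ye6100 and above the middle on S98. The place of SGA1 depends on the use of its brightest probe set. With the mean of all probe sets, its mean percentile over both arrays went from 37.9 to 30.5. The SCY840 mutant gave 34.8 and 92.6 for SGA1 and 11.6 and 43.7 for NDT80, with the same direction between formats.

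Ranked by the higher of the 2 percentiles, with genes listed at 0 left out, the 20 lowest genes were CSM4, COS12, YIL102C, GMC2, YFL012W, DCV1, SMK1, YFR057W, YAL065C, MEI5, YDL114W, YLR012C, SLZ1, YIL163C, ANS1, YLR030W, MND1, ATG16, MNN14 and YGR273C. Their signals ran from 0.2 to 1.6 on Ye6100 and from 0.6 to 5.7 on S98, all at or below the highest bacterial probe set of their array. CSM4 and GMC2 act in meiosis, and SLZ1 is part of a complex that methylates messenger RNA in meiosis. Genes that carry only a systematic name made up 6.98% of all genes, 2.45% of the 368 in the top 10% on both arrays (9 genes) and 21% of the 290 in the bottom 10% on both (61 genes).

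Low ranks were frequent at chromosome ends. By gene order in the reference gene table (assembly R64), the 58 genes among the 5 nearest to a chromosome end had medians of 18.8 and 26.6, and 14 of them (24.1%) were in the bottom 10% on both arrays. For genes 6 to 10 from an end the medians were 35.2 and 41.5 over 130 genes, and the share was 11.5%. For genes 11 to 20 from an end they were 43.5 and 45.7 over 282 genes, with 6.38%. The 4835 genes farther in had medians of 51.1 and 50.7, with 4.94%. Both arrays therefore gave the same order of the 4 zones. Of the 58 outermost genes 0 were in the top 10% on both arrays, against 7.11% of the inner ones.

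The labelled cell type and growth state could be set against their markers. In the a-cell list of 12 genes, MFA1 and MFA2 encode the a-factor pheromone. MFA1 read 839 and 4332, on S98 from a probe set marked for related transcripts, and stood at 93.1 and 97.5, and MFA2 read 4272 and 2633 and stood at 98.5 and 92.8. STE2, the receptor for alpha-factor, read 321 and 791, at 83.5 and 76.4, and BAR1, the protease that degrades alpha-factor, stood at 68.7 and 66.7, AGA2 at 66 and 64.6 and STE6 at 60.3 and 56.7. AXL1, needed for processing of a-factor, stood at 6.7 and 21.9, the lowest of the list on Ye6100, and ASG7 at 24.8 and 15.9, the lowest on S98. All 4 alpha-cell genes named on both arrays were low. The alpha-factor gene MF(ALPHA)1 read 6.8 and 60.2 and its copy MF(ALPHA)2 read 10.5 and 64.6. STE3, the receptor for a-factor, read 9.4 and 61.2, and SAG1, the alpha-agglutinin, read 16.4 and 51.8. The a-cell list had medians of 67.3 and 65.6 and the alpha-cell list 6.8 and 14.6, which goes with the labelled mating type a in both strains. In the pheromone pathway, shared by both mating types, the G protein beta subunit gene STE4 stood at 84.5 and 89.4, and the pheromone-induced genes FUS1, PRM2 and PRM3 at 3.9 and 5.7, at 1.1 and 16.8 and at 9.9 and 7.4.

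Markers of growth on glucose and of starved cells separated only in part. HXT1, HXT3, PDC1, ADH1 and ENO2 all lay above percentile 88 on both arrays, and TDH3 did so only on Ye6100. Of the markers of stationary cells, SPG1 stood at 4.4 and 13.1, SPG4 at 22.9 and 34.4, SNZ1 at 28.7 and 27, and ICL1, PCK1 and FBP1 as given above. HSP12 and HSP26, small heat shock genes that rise when glucose runs low, did not follow. HSP12 read 488 and 1248 and stood at 88.5 and 83.9, and HSP26 read 417 and 565 and stood at 86.6 and 70.1. ADH2, another of the markers of stationary cells, stood at 68.9 and 43. The wider list of general stress, trehalose and glycogen genes had medians of 72.6 and 51.3, with HSP30, UGP1 and YGP1 at 95.6 and 93.8, at 95.9 and 93.3 and at 94.5 and 90.7 and GRE1 and SIP18 at 11.2 and 13 and at 17.2 and 15.5.

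The W303 background carries mutant alleles of several marker genes, and the files show their transcripts rather than their alleles. LEU2 read 2568 and 4817, at 97.7 and 98.2, and URA3 372 and 664, at 85.5 and 73. ADE2 stood at 59.9 and 56.3, HIS3 at 47.6 and 68.7, TRP1 at 40.9 and 61.2 and CAN1, for the arginine permease, at 54.6 and 32. SSD1, RAD5 and YBP1, which also differ in W303, stood at 51.2 and 32.7, at 31 and 22.6 and at 10.6 and 7.2. Whether the marker alleles or plasmids are the same in both strains was not analysed here.

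Where list medians differed by more than 10 points between the controls, they were lower on S98. Of 44 lists 37 had medians within 10 points of each other, 7 were more than 10 points lower on S98 and 0 more than 10 points higher. The 7 were ethanol and glycerol formation, hexose transport, iron uptake, general stress, hypoxic genes, transcription factors and vacuolar hydrolases. General stress genes had medians of 72.6 and 51.3 in the controls and 32.5 and 61.5 in the SCY840 mutant, in the opposite direction. For hypoxic genes and anaerobic mannoproteins they were 62.2 and 37.8, against 59.3 and 53 in SCY840. For vacuolar hydrolases they were 83.6 and 64.8, against 72.9 and 75.4, and for transcription factors 46.4 and 33.1, against 35.9 and 34.6. In SCY840 ethanol and glycerol formation had medians of 86.3 and 82.4, hexose transport 21.7 and 36.1 and iron uptake 41.2 and 46.5. For vacuolar hydrolases, hexose transport and iron uptake the direction in SCY840 was also opposite to that in the controls.

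The stress genes can be read singly. TSL1, of the trehalose synthase complex, stood at 78.9 and 42.6, MSN4, an activator of stress genes, at 77.6 and 34, GPH1, glycogen phosphorylase, at 73.4 and 42.8 and CTT1, the cytosolic catalase, at 58.7 and 28.9. DDR48 ran the other way, at 49.6 and 95.3. These 5 were named after their values were seen. Of the 29 genes 23 were lower and 6 higher on S98. The part of strain, sample and format in this difference was not tested.

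A small set of genes lay far apart. In 57 genes (1.07%) the percentiles differed by more than 50 points, 24 of them higher on S98 (0.451% of all genes) and 33 lower (0.621%). In the SCY840 mutant 56 genes (1.05%) differed by as much between the formats. Of the 57 genes, 53 had a difference of the same sign in SCY840, and 24 of them were again more than 50 points apart. The probe sets of 17 of the 57 carry a suffix for shared or dropped probes on at least 1 array. The plot of these genes sets the controls against SCY840.

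Among the lower genes, the largest gaps belonged to genes bright on Ye6100 and near or at 0 on S98, as gaps of that size require. Control 3 lists 10 genes at a signal of 0, and all 10 were in the top 10% on Ye6100: RPL22A, RPL24B, RPL36A, RPL21B, RPS21A, RPS21B, CCW12, SSA1, ARF1 and HOR7. RPL36A read 24612 on Ye6100, the highest signal of that array, and RPS21A 24129. CCW12, for an abundant cell wall mannoprotein, read 15000.3, and ARF1, for a GTPase of coat assembly, 4160.0. Control 1/2 lists 0 genes at 0. Mutant 3, on the same format as control 3, also lists 6 of the 10 at 0. The closely related gene ARF2 stood at 90.3 and 99.6, and the second copies RPL36B and RPL22B are not named on both arrays. A signal of 0 beside such values cannot be read as absence of the transcript, and these genes have no level on S98 here.

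Genes just above 0 behaved alike. RPL21A read 21640.3 and 4.2, RPP2B, for an acidic stalk protein, 11993 and 2.8, and RPL37A 8106 and 3.2. Their partners RPP2A and RPL37B stood at 99.8 and 98.5 and at 99.8 and 98.3, in the top 10% on both arrays. SCY840 showed the same difference, with percentiles of 99.9 and 1.8 for RPL21A, 99.8 and 1.9 for RPP2B and 99.6 and 1.3 for RPL37A. RPL22A was different in that SCY840 stood at 99.8 and 91.5, with a signal of 1122 on S98, where control 3 is listed at 0.

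Genes higher on S98 came from the low end of Ye6100. Of the 24 genes, 14 were in the bottom 10% on Ye6100, and 0 of all genes were in the bottom 10% on Ye6100 and the top 10% on S98. RER1, which returns membrane proteins to the endoplasmic reticulum, read 23.5 and 1469 and stood at 19 and 86.3. MET5, for the beta subunit of sulfite reductase, read 14.8 and 634, at 10.8 and 72.1, while MET10, for the alpha subunit, stood at 56.6 and 35.8. YPR089W, FMP23, IAI11, QDR2, MID1, XRS2 and OAZ1 completed the 10 without a suffix, together with SGA1. With the mean of all probe sets, the mean percentile over both arrays fell for SGA1 (37.9 to 30.5), IAI11 (32.2 to 24.4) and YPR089W (30.8 to 23.2). The others of the 10 hardly moved. SCY840 gave 39.8 and 77.1 for RER1 and 7.1 and 72.4 for MET5.

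With a suffix, HMRA1, a silent copy of the a1 gene of mating type a, read 15.5 and 2671, at 11.3 and 92.9. The active copy at the mating type locus has the same coding sequence, so the signal cannot be assigned to either. COS7, of a family near chromosome ends, stood at 5.4 and 87.1, and YIL060W at 6.4 and 83.9. All 3 were also over 50 points apart in SCY840, at 17.3 and 91.4, 14.2 and 93.3 and 4.9 and 90.1, and they were named after their values were seen.

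In 4 of the 57 genes SCY840 differed by 10 points or less between the formats: RPL22A, ACH1, ARR2 and RBK1. ACH1, which transfers coenzyme A between acetate and succinate, stood at 76.9 and 15.4 in the controls and 41.7 and 41.8 in SCY840. RBK1, for a putative ribokinase, stood at 28.1 and 82.6 in the controls and 75.7 and 84.7 in SCY840. The sign was opposite in 4 genes, namely ACH1, VHS1, SSA4 and IAI11. SSA4, a heat-inducible Hsp70 gene, stood at 92.3 and 40 in the controls and 48.3 and 61.2 in SCY840. Whether these differences belong to the control strains, to the samples or to the ARV1 mutation cannot be told apart.

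**Figure D5:**
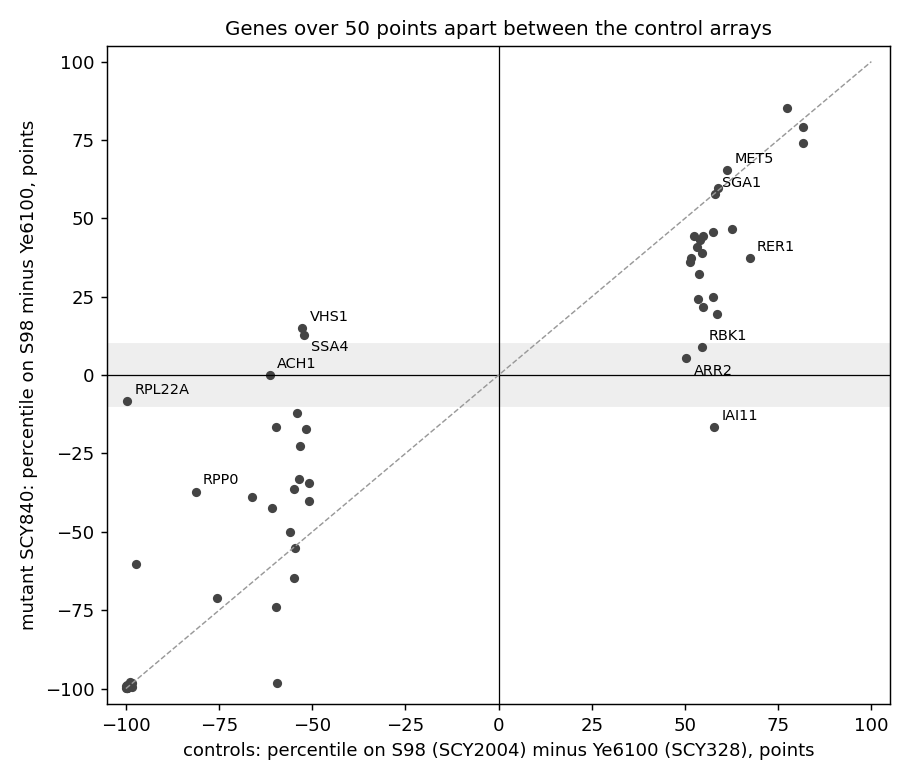
For the 57 genes over 50 percentile points apart between the control arrays, the percentile on S98 minus that on Ye6100 in the controls (horizontal axis, points) and in the SCY840 mutant (vertical axis, points), with the band of 10 points or less in SCY840 shaded and a dashed line where both are equal. Of the points 53 fall in the quadrants of equal sign, 4 (RPL22A, ACH1, ARR2 and RBK1) fall in the shaded band, and VHS1, SSA4, ACH1 and IAI11 have opposite signs.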

How the data were processed

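Poly(A) RNA was selected from total RNA, transcribed into biotin-labelled cRNA and hybridised to Affymetrix Ye6100 chips (4 per sample) or to the S98 array, per the labels' protocols. The deposited values are linear intensities that give each probe set 1 signal, and the submitters' processing notes name MAS5. The sources used here state neither its version nor the scaling or build, and no detection calls entered the ranking. The Ye6100 table joins the 4 chips of a sample in 1 column, per the file headers, and a sample's chips counted as 1 sample. Arrays give no counts, and the single sample per format limits the precision.

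Of 6593 probe sets on Ye6100, 6418 bear the name of an open reading frame, and 5880 could be matched by locus tag to the reference genes (assembly R64), which gave 5663 genes. S98 has 9335 probe sets, of which the platform annotation gives 6504 a single symbol, 328 several and 2503 none, and these named 5656 genes. A gene took its brightest probe set by the mean over the table's samples, which mattered for 91 and 279 genes with several. Signals were neither rescaled nor logged, and the 5316 shared genes were ranked within each sample, ties taking their mean rank. No test was made, since each format holds 1 control. The ranking was tested on simulated data.

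Named genes are the 20 at each end by the worse of the 2 percentiles, genes listed at 0 left out of the low end, the 10 largest differences each way without a suffix, up to 4 members at each end of a list with any in the opposite 10%, ARV1 and the marker genes. Other genes, named beside a partner or as exceptions, were chosen after their values were seen. The members and lists were chosen with earlier results of these data known. Alternatives changed the value of genes with several probe sets, the probe sets with a suffix, the genes ranked, the signals at 0, the low signals, and the size of each tail, tolerance and gap. No sequences are shown. Python 3.11.15, pandas 2.3.3, numpy 2.4.6 and matplotlib 3.10.9 were used.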

Additional observations from a re-analysis of the deposited data

Results flagged for a closer look

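Signal was also present outside the 5316 ranked genes. On both formats 10 probe sets report ribosomal RNA, which lacks the poly(A) tail of messenger RNA. The brightest, for the 25S ribosomal RNA, read 4817.9 in control 1/2 (mean of 4 chips) and 1250.2 in control 3. On the percentile scale of the genes these stand at 98.8 and 84.0. The lowest of the 10 probe sets stood at 88.8 in control 1/2 and 13.0 in control 3. How much ribosomal RNA was left after selection cannot be told from these values.

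Probe sets without a usable gene name were bright in part. In control 1/2, 156 of 577 such probe sets were above every bacterial probe set, and in control 3 1094 of 2771 were. Above the 90th percentile of the genes stood 10 of them on Ye6100 and 164 on S98. They include probe sets with several symbols, so some belong to known genes that the arrays do not separate.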

How the results depend on the processing

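The count of 368 genes in the top 10% of both arrays lay between 290 and 374 under the 5 alternatives that changed the probe sets or the genes ranked, and was 162 for the top 5% and 806 for the top 20%. The count of 290 in the bottom 10% lay between 271 and 299, except that it fell to 31 when genes low on both arrays were left out, and 0 of those 31 were among the 290, by construction. It was 109 for the bottom 5% and 687 for the bottom 20%. The 57 genes over 50 points apart became 43 to 55 under 4 alternatives, 91 without genes low on both arrays and 146 at 40 points. The rank correlation of 0.829 was 0.832 with the mean of all probe sets, 0.836 without probe sets carrying a suffix, 0.829 with all genes of each array ranked, 0.840 without genes listed at 0 and 0.755 without genes low on both arrays. Genes within 10 points numbered 2822 to 2930 under 4 alternatives and 1950 of 4383 without low genes. The mean of the 2 medians of a list moved by at most 1.3 points with the mean of all probe sets or all genes ranked, and by at most 0.9 without genes at 0. Without suffixed probe sets 43 of 44 lists stayed within 5 points, and hexose transport fell by 27.4. Without genes low on both arrays, which removes low members by construction, 30 of 43 lists stayed within 5 points. Hexose transport then rose by 42.4, and the meiosis list, with 6 genes left, went from 4.8 to 20.4. No replicate could be left out, since each comparison needs the 1 control of each format. No paired analysis was possible because no test was made and the controls share no replicate number with each other. Low signals limit what can be ranked, since the bottom 10% lies within the range of the bacterial probe sets on both arrays.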

Other observations

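Outside the lists, the 368 genes in the top 10% on both arrays included 136 in no list, and several guard against oxidants. The peroxiredoxin genes TSA1 and AHP1 stood at 98.4 and 98.1 and at 97.6 and 98.1, the thioredoxin genes TRX1 and TRX2 at 97 and 90.5 and at 94.1 and 92.5, the thioredoxin reductase gene TRR1 at 96.4 and 90.2, and the superoxide dismutase gene SOD1 at 97 and 94.2. Mitochondrial transport and folding proteins were there too, with the porin gene POR1 at 97.8 and 97.4, the ADP/ATP carrier gene PET9 at 97.9 and 96.8, and the chaperonin genes HSP10 and HSP60 at 96.7 and 98.6 and at 96.5 and 96.3. UBC4, a ubiquitin-conjugating enzyme gene, stood at 98.3 and 98.4 and STM1, which binds ribosomes, at 98.9 and 98.3.

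Of the 290 genes in the bottom 10% on both arrays 239 were in no list. Among them were genes of the kinetochore and spindle, such as NDC80, NUF2 and SPC24 of the kinetochore complex that binds microtubules, at 4 and 5.4, at 0.6 and 4.8 and at 6.5 and 0.9, the spindle checkpoint kinase gene BUB1 at 2.6 and 3 and the kinesin gene CIN8 at 2.7 and 3.7. These are needed in every division, and their signals, such as 6.3 and 28.3 for NDC80, were at or below the highest bacterial probe set of their array. All genes of these 2 paragraphs were chosen after their values were seen, and no test was made of them.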
